A study of Homo sapiens with 4 samples.

Results

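Reduced representation bisulfite sequencing (RRBS) of SKOV3 clones was searched for stretches of the genome where neighbouring 1 kb windows, or tiles, all differed in methylation between control cells and LY75 knockdown cells. SKOV3 is an established human epithelial ovarian cancer line of mesenchymal-like (M) phenotype, and LY75 (DEC205/CD205) is an endocytic antigen receptor. The knockdown comparison, of shC-S, an SKOV3 clone with a control shRNA and M phenotype, with sh-LY75-S, a clone with an shRNA against LY75 and epithelial (E) phenotype, listed 48940 autosomal tiles. Among them 651 runs of 3 or more adjacent tiles were found, which together held 2134 tiles, or 4.36% of those listed. The series had 2 further clones of the same line, LY75-KO-S, in which LY75 was disrupted with CRISPR (E phenotype), and LY75-R-S (Ly75-OV-S in the labels), in which LY75 was overexpressed on top of the LY75 shRNA (M phenotype). These were set against each other in the knockout comparison, and all 4 libraries entered a mix of M against E clones. Each clone was 1 library, so no difference here has a replicate check, a clone's own methylation cannot be told apart from the effect of LY75, and no test between conditions was made.

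The runs were chosen by the measured values of this comparison itself: a tile was listed when its methylation differed by at least 25 percentage points (points below) with a q-value below 0.01 in the authors' deposited table, and a run needed tiles whose starts lay exactly 1000 bp apart. The differences of run tiles in this comparison are therefore given as a description. A positive difference was read as higher methylation in sh-LY75-S, and a negative one as lower. That order rests on the direction that the study's text gives for the genes it selected, since neither the table nor the methods state which library was subtracted. With this order the listed tiles at HOOK1, RAMP1, RAMP2, JMJD8 and WNT3, described there as more methylated in E cells, were all positive. Those at CEND1, EVX2, IFFO1 and KLF4, described as less methylated, were all negative, as were 3 of 4 at CLDN5. APC2, also described as less methylated, went against the order, with 11 of 12 listed tiles positive, among them 2 of the 3 within 2 kb of a TSS. Every direction given here would turn with the opposite order. A tile missing from a table was either not covered or not past the thresholds, and these cases cannot be told apart, nor is the read depth of any tile known. LY75 itself was touched by listed tiles but by no run, and RRBS does not measure its expression, so the knockdown is not checked by these data.

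In mammalian DNA, methyl groups are added mostly to cytosines followed by guanine (CpG). CpGs are rare over most of the genome and largely methylated there, while CpG islands, dense stretches at many promoters, are mostly unmethylated in normal cells. Islands of transcription factors that direct embryonic development often gain methylation in cancer cells, and methylation of a promoter island usually goes with a silent gene. RRBS cuts DNA with MspI, an enzyme whose site CCGG holds a CpG, and reads the ends of short fragments, so CpG-dense DNA is seen best.

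The following stretches of 240 bases each are examples of DNA from runs of higher methylation in sh-LY75-S. They came from the run at the start of SGPP2, from one of the longest runs without an annotated gene, and from the run without an annotated gene in which every tile was listed in both single comparisons. Each is the most CpG-rich stretch of its run outside annotated exons, read 5′ to 3′ on the plus strand of GRCh37 (hg19), with every CpG in capitals. The stretches are thus denser in CpGs than their runs as a whole.
SGPP2 run, chr2:223289021-223289260: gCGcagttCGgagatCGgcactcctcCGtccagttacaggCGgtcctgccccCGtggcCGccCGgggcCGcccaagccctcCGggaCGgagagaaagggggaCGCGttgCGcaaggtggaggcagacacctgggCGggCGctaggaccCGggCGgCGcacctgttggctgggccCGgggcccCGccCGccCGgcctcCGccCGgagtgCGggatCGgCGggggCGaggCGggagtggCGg
gene-free run of 7 tiles, chr9:139077706-139077945: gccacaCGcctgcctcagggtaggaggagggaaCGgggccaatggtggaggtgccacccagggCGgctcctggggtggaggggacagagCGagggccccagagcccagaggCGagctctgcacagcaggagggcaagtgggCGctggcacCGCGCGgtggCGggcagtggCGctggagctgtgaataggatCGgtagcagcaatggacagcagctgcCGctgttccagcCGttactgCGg
gene-free run listed in both comparisons, chr1:29721156-29721395: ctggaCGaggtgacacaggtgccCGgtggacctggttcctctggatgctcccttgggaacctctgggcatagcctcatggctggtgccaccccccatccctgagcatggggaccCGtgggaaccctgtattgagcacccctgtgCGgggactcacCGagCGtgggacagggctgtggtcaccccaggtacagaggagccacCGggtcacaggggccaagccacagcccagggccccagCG

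The SGPP2 stretch held 31 CpGs and lay in a tile that was 90.9 points higher. That of the gene-free run of 7 tiles held 15, in a tile 28.2 points higher, the smallest difference of that run. This stretch held no CCGG site. That of the gene-free run listed in both comparisons held 8, in a tile 80.4 points higher. The differences are those of whole tiles, and whether the bases shown were read is unknown. Positive runs thus lay over both island-like and CpG-poorer DNA.

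Most runs were short. Of the 651 runs, 518 had 3 tiles, 103 had 4, 20 had 5, 5 had 6, 3 had 7, and 1 each had 8 and 9. Just outside the rule stood 3671 pairs of adjacent tiles, and 39464 listed tiles had no listed neighbour. The median absolute difference was 53.5 points in runs of 3 tiles, 51.5 in the pairs and 50.0 in the tiles without a neighbour. Tiles of negative runs had a larger median, 63.0 points, against 50.0 for negative tiles outside runs, and those of positive runs had 54.9. At the edge of the listing, 199 run tiles (9.33%) differed by less than 30 points, against 11.5% of all listed tiles. Complete differences of 100 points were found in 218 run tiles (10.2%) and in 13.1% of all listed tiles, and no run had a complete difference in every tile. The median q-value was 4.97e-43 in runs and 4.82e-23 over all listed tiles.

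Run tiles mostly lay where RRBS can read several tiles in a row. In a digest of GRCh37 computed for MspI fragments of 40 to 220 bp read for 50 bases from each end, 124069 of 368220 readable tiles (33.7%) lay in stretches of 3 or more readable tiles. Such stretches held 93.6% of run tiles and 36.0% of all listed tiles. Of the tiles in these stretches 14.2% were listed, against 12.4% of all readable tiles. The share of run tiles follows largely from the rule. A run needs 3 listed tiles in a row, and 96.8% of run tiles held a readable CpG in the digest. Tiles without a neighbour have no such need. The part of the fragment map in which tiles formed runs was not tested further.

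Tiles of one run mostly shared their direction. In 484 of the 651 runs (74.3%) every tile had the same sign: 346 runs were positive throughout and 138 negative throughout, while 167 held both signs. Among the 1483 adjacent tile pairs inside runs 1266 (85.4%) were of equal sign, and the difference changed by a median of 24.9 points from one tile to the next. Of all run tiles 1431 (67.1%) were positive, beside 64.3% of all listed tiles. Direction in runs as a whole was thus close to that of the table, and the agreement lay between neighbours. It faded with distance: over all listed tiles, equal signs were found in 82.5% of 5154 pairs that lay 1 kb apart, in 76.4% at 2 kb, 72.5% at 5 kb, 69.6% at 20 kb, 65.7% at 100 kb and 61.1% at 1000 kb. The 1 kb pairs are those that runs and pairs were built from, while the larger distances include pairs of tiles of all kinds. These pairs share 2 libraries and many tiles, so the percentages are a description.

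**Figure D1:**
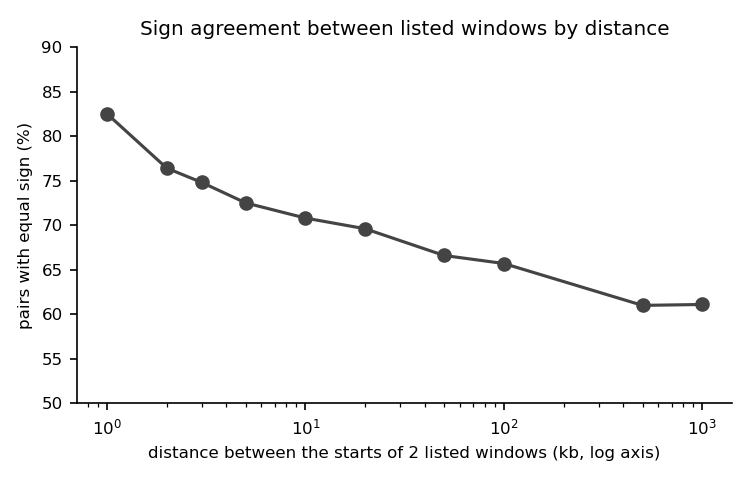
Share of tile pairs with equal sign (vertical axis, percent, from 50 to 90) against the distance between the starts of the paired tiles (horizontal axis, kb, log scale), over all autosomal tiles listed in the knockdown comparison. Each point is 1 distance, and the share falls from 82.5% at 1 kb to 61.1% at 1000 kb.

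Positive and negative runs lay in different kinds of DNA. Negative runs had a median of 58.2 CpGs per tile (quartiles 45.8 and 68.6), positive runs 33.0 (24.7 and 42.7) and runs of both signs 36.7, whereas listed tiles without a neighbour had a median of 18.0. A transcription start site (TSS) of a protein-coding gene lay within 63 of the 138 negative runs (45.7%) and within 63 of the 346 positive runs (18.2%). Negative runs thus lay more often at CpG-rich gene starts. Of their 453 tiles, 58 (12.8%) lay outside genes, against 446 of the 1129 tiles (39.5%) of positive runs. Among tiles outside runs the gap between directions was smaller, with 36.5% of negative and 43.9% of positive tiles outside genes, and medians of 18 and 20 CpGs. The share of positive tiles fell with CpG density in runs, from 76.6% of 934 tiles with 20 to 39 CpGs (95% Wilson interval 73.7 to 79.2) to 38.0% of 208 tiles with 80 or more (31.7 to 44.7). Outside runs it was 69.9% (69.2 to 70.6) and 55.3% (52.5 to 58.1) at these densities. Tiles of 1 run are not independent, and the intervals cover counting error only.

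**Figure D2:**
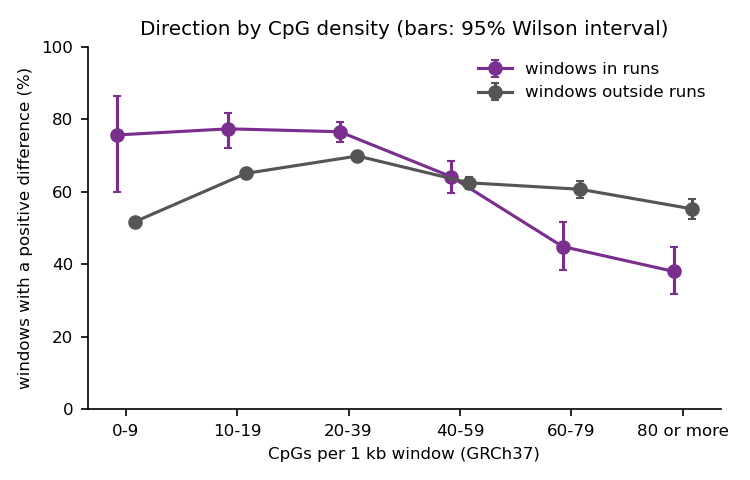
Share of tiles with a positive difference (vertical axis, percent) by number of CpGs in the 1 kb tile (horizontal axis), for tiles in runs (purple) and outside runs (grey). Points are shares and bars their 95% Wilson intervals. In runs the share falls from 76.6% at 20 to 39 CpGs to 38.0% at 80 or more, below that of tiles outside runs (55.3%).

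The longest run, of 9 tiles at chr1:63782001-63791000, covered FOXD3, a forkhead factor of the neural crest and of pluripotent cells, with its antisense RNA FOXD3-AS1. Its first tile stood at 25.01 points and the other 8 were negative, at -36.2, -50.0, -69.9, -54.6, -29.8, -41.6, -63.3 and -96.2 points from left to right. The only positive tile thus lay at the edge of the run and barely above the limit of listing. The run of 8 tiles at chr4:3653001-3661000 had no annotated gene, with the nearest protein-coding TSS, that of the adrenergic receptor gene ADRA2C, 107 kb away. Its tiles stood at 47.2, 100, -50.0, 37.8, 96.9, 82.5, 67.2 and 71.7 points, so that a single negative tile broke a positive run.

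All 3 runs of 7 tiles were positive throughout. One, at chr9:138674001-138681000, lay in exons and introns of KCNT1, which encodes a sodium-activated potassium channel, with differences from 33.4 to 100 points. Of the 3 other runs in KCNT1 1 was positive and 2 were of both signs. Another, at chr9:139077001-139084000, had no gene and lay 9.52 kb from a TSS of the LIM-homeobox gene LHX3 (28.2 to 80 points). The third, at chr20:61158001-61165000, lay in MIR1-1HG, the host transcript of muscle microRNAs, and covered MIR133A2 (27.9 to 79.4 points).

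Of the 5 runs of 6 tiles, 3 were negative and 2 positive. The negative ones lay 4.32 kb from the TSS of SP9, a zinc finger factor of forebrain neurons (chr2:175204001-175210000, -93.4 to -25.4 points), in KLF16, a Krüppel-like factor gene (chr19:1852001-1858000, -71.1 to -31.3), and in an intron of HMX1, a homeobox factor of the eye and ear (chr4:8859001-8865000, -100 to -31.6), where a run beside it was of both signs. Each of these negative runs thus lay in or near a transcription factor gene. The nearest protein-coding TSS to the KLF16 run was however that of REXO1, 3.52 kb away. The positive ones lay in the last exons of APC2, a relative of the APC protein that holds beta-catenin in check, and reached C19orf25 (chr19:1468001-1474000, 25.9 to 90.5 points), and 126 kb from the nearest protein-coding TSS, that of FAM53A (chr4:1539001-1545000, 28.1 to 75.8 points).

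**Figure D3:**
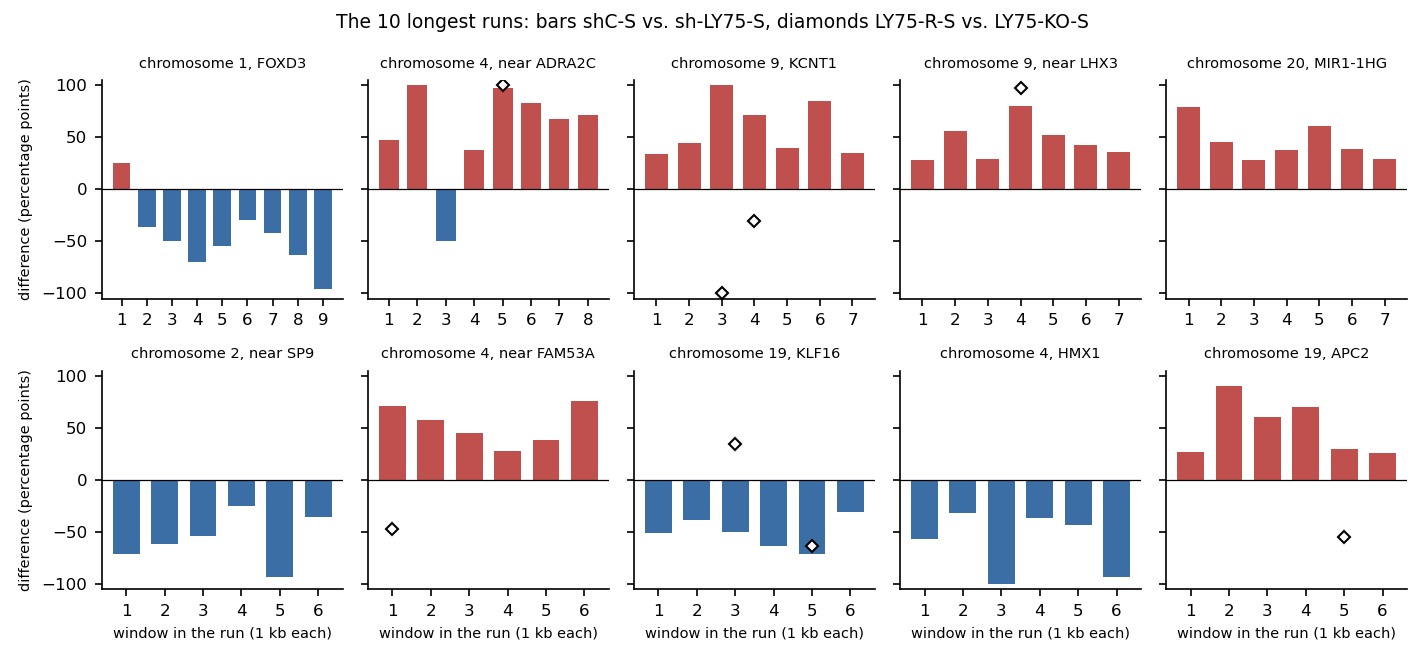
Difference in methylation (vertical axis, percentage points, positive is higher in sh-LY75-S) of each 1 kb tile, in order along the chromosome (horizontal axis), in the 10 longest runs. Bars show the knockdown comparison (shC-S with sh-LY75-S), red above and blue below 0, and open diamonds show the tiles also listed in the knockout comparison (LY75-R-S with LY75-KO-S). Each panel is titled by its chromosome and its gene or the nearest protein-coding TSS. Of the 10 runs 5 were positive throughout and 3 negative throughout, and the runs of 9 and 8 tiles each held 1 tile of the other sign.

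Runs of one sign that held a protein-coding TSS included some in which every tile differed almost completely. How much of each tile was read is unknown. Among positive ones the largest smallest difference was that of SGPP2, which encodes a sphingosine-1-phosphate phosphatase: its 3 tiles (chr2:223288001-223291000) stood at 100, 90.9 and 97.5 points. In the computed digest 0, 86 and 8 of their CpGs could be read. At PLEC, the gene of the cytolinker plectin, 4 tiles (chr8:145015001-145019000) ranged from 80.1 to 99.3 points, and 3 tiles over another PLEC start from 68.2 to 100 (chr8:145011001-145014000). A run over a further PLEC start went the other way, from -86.2 to -30.4 (chr8:145045001-145048000). Others were ZNF763, a zinc finger gene (79.3 to 100), and PRRT1B (77.9 to 98.8).

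Among negative ones the run over the starts of UQCRH, a subunit gene of respiratory complex III, and its neighbour LRRC41 (chr1:46767001-46770000) stood at -96.7, -93.8 and -100 points. At IFFO1, an intermediate filament family gene, the 3 tiles (chr12:6663001-6666000) stood at -100, -93.5 and -90.3. At RARA, which encodes retinoic acid receptor alpha, they stood at -87.0, -97.9 and -88.7 (chr17:38497001-38500000). Each of these genes had an annotated TSS, not necessarily its only one, in a tile listed as far less methylated in sh-LY75-S than in shC-S. The 5 tiles of HOXD3 ranged from -100 to -79.6 (chr2:177022001-177027000), and those of LHB, the luteinizing hormone beta subunit, from -100 to -73.3 (chr19:49520001-49523000). In the LHB tile that held the TSS, at -100, the digest could read 4 of 30 CpGs. Over all runs, 74 positive and 51 negative ones kept at least 50 points in every tile.

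Of the 167 runs of both signs, 120 (71.9%) had a single sign change along the run. As 128 of them had 3 tiles, where 1 tile always goes against the other two, run length largely fixes such counts. Of the 39 longer ones 28 had 1 tile against the rest. Their positive and negative tiles were alike in CpG number, with medians of 34 and 32. The widest swings joined complete differences of opposite sign. In an intron of SDK1, a cell adhesion gene, neighbouring tiles stood at 100, -100 and 33.3 points (chr7:4138001-4141000). At ITGB2, the beta chain of leukocyte integrins, they stood at 100, 68.9 and -100 (chr21:46348001-46351000), and at COL5A1, a chain of type V collagen, at 100, -33.3, -71.3 and -100 (chr9:137588001-137592000). The other two, without a protein-coding gene, lay at chr6:2911001-2914000 (47.1, -100 and 100 points) and in LINC02641 at chr10:125187001-125190000 (100, -100 and 28.1). Their tiles held 9 to 30 CpGs. In the computed digest no CpG could be read in any tile of the run at chr6:2911001-2914000, nor in the -100 tile at ITGB2. The coverage behind these complete differences is unknown.

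Genes covered by runs, here those with an exon in a run tile or a TSS within 2 kb of one, numbered 445 of 26162 autosomal genes with a RefSeq symbol (1.70%), among them 353 protein-coding genes. Any listed tile covered 9489 of these genes (36.3%). Positive runs covered 176 genes, negative runs 151 and runs of both signs 126, and 174 protein-coding genes had a TSS inside a run. Lists of genes were counted beside these shares, and nothing is claimed as particular to a list.

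Regulators of embryonic development made up the largest group among the lists. Of 218 genes in 3 lists (the HOX clusters, other homeobox factors, and the SOX, T-box, GATA, ZIC and FOX families), 168 (77.1%) were covered by a listed tile and 43 (19.7%) by a run. Of the 43 runs involved 31 were negative throughout (72.1%, beside 21.2% of all runs), 5 positive and 7 of both signs. Their tiles were CpG-rich, with a median of 64.0 CpGs. In 80.3% of these 147 tiles methylation was lower in sh-LY75-S, and the same held for 68.7% of the 444 listed tiles of any kind that covered the 3 lists. These runs were 22.5% of all negative runs. The share of 21.2% is not matched for CpG number. Among tiles of all runs, those with 60 to 79 CpGs were positive in 44.9% and those with 80 or more in 38.0%. Most such tiles were thus negative whatever their gene. Whether runs at the 3 lists were negative more often than other runs of the same CpG number was not tested.

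The HOX genes set the positions of body segments. Among 39 of them 6 were covered by runs, in 4 negative runs and 2 of both signs. From EVX2, the homeobox gene beside the HOXD cluster, to HOXD3, 4 runs with 15 tiles in all lay within 81.0 kb (chr2:176946001-177027000), and every one of the 23 listed tiles of that stretch was negative. The fourth gene in it was HOXD10. EVX2 stood at -57.5, -100 and -76.8 points, HOXD11 at -86.1, -83.6, -56.6 and -100, and HOXD3 at -99.1, -79.6, -90.4, -100 and -85.9. HOXB3 followed the same direction, at -79.8, -91.6 and -79.1 (chr17:46627001-46630000).

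Among 96 other homeobox factors 19 were covered, in 17 negative and 2 positive runs. PAX2, a factor of kidney and Müllerian duct development, had 4 tiles from -80.7 to -61.8 points in exons 80024 bp from its nearest TSS (chr10:102586001-102590000). LHX9, a LIM-homeobox factor of the early gonad, had -86.7 to -42.0 (chr1:197887001-197891000), and EN1, a midbrain and limb factor, -55.8 to -26.7 (chr2:119602001-119606000). The exception among the named ones was ONECUT3, where 5 exonic tiles were positive, at 30.6, 51.0, 100, 33.3 and 33.1 points (chr19:1775001-1780000), while a run in its intron was negative (-63.0 to -30.6). Of 83 SOX, T-box, GATA, ZIC and FOX factors 18 were covered, in 10 negative runs, 3 positive and 5 of both signs. The run over the start and exons of ZIC1, a cerebellar gene that lies head to head with ZIC4, was negative, from -92.4 to -30.2 points over 5 tiles (chr3:147126001-147131000), while that of FOXF2, a mesenchymal forkhead factor, stood at 29.1, 57.1, -59.3 and -59.1 (chr6:1390001-1394000).

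**Figure D4:**
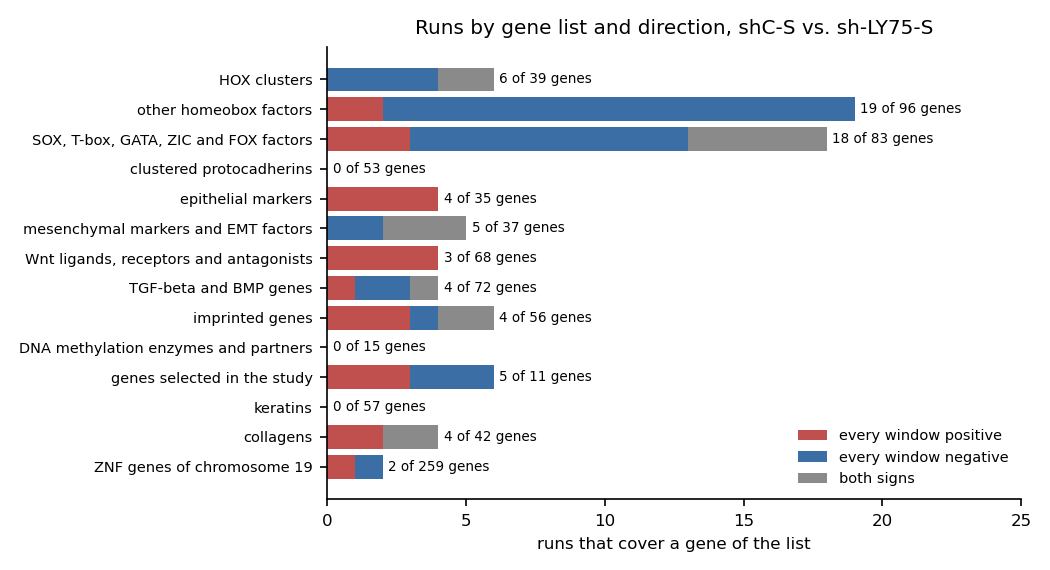
Number of runs that cover at least 1 gene of each list (horizontal axis), split into runs with every tile positive (red, higher in sh-LY75-S), every tile negative (blue) and both signs (grey). The text beside each bar gives the covered genes of the annotated ones. Other homeobox factors had 17 negative runs of 19, and the 4 runs at epithelial markers were all positive.

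Of 35 epithelial markers 23 (65.7%) were covered by a listed tile and 4 (11.4%) by a run. All 4 runs were positive, beside 53.1% of all runs. Positive means higher in the clone of E phenotype, under the reading of the sign used here. The covered genes included ESRP1 and ESRP2, which encode splicing regulators of epithelial cells, and TJP3, which encodes the tight junction protein ZO-3. The 5 tiles of ESRP2 (chr16:68269001-68274000) stood at 49.3, 46.3, 97.2, 100 and 93.9 points, those of ESRP1 (chr8:95651001-95655000) at 44.3, 52.8, 77.1 and 31.6, and those of TJP3 (chr19:3708001-3711000) at 25.9, 32.8 and 31.8. ESRP1, ESRP2 and TJP3 had a TSS in the run. The first TJP3 tile was also listed in the knockout comparison, at -31.3 points. No run touched CDH1 or EPCAM, the genes of E-cadherin and EpCAM. The microRNA genes MIR200C and MIR141, which are not in this list, lay in a run of both signs (chr12:7071001-7074000). It had 2 negative tiles and 1 positive, from -100 to 26.3 points.

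Mesenchymal markers and factors of the epithelial to mesenchymal transition were covered in 5 of 37 genes (13.5%), by 2 negative runs and 3 of both signs. A listed tile covered 24 of the 37 (64.9%). The negative ones were FOXC2, at -95.8, -77.7 and -68.2 points (chr16:86600001-86603000), and goosecoid (GSC), at -87.6, -65.0 and -50.4 (chr14:95233001-95236000). Both are developmental transcription factors that the lists above hold as well. CDH11, a mesenchymal cadherin, stood at 27.0, -56.9, 53.5 and 60.7 (chr16:65154001-65158000), and THY1, the surface marker CD90, at 100, -70.8 and -99.9 (chr11:119291001-119294000). The third, in exons of COL1A1, a chain of type I collagen, stood at -37.5, 50.7 and 31.4 (chr17:48261001-48264000). In the computed digest no CpG of its tile at -37.5 could be read. CDH2, TWIST1, FN1 and SNAI1 were in no run.

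The list of Wnt ligands, receptors and antagonists had 3 of 68 genes in runs (4.41%) and 42 (61.8%) covered by a listed tile. It does not hold every gene of the pathway. The 4 runs were positive, beside 53.1% of all runs. WNT1, a Wnt ligand, had 47.4, 32.8 and 34.4 points around its TSS (chr12:49372001-49375000), and WNT3, another, 50.0, 78.9 and 25.4 points in intronic DNA, with its nearest TSS 1.94 kb away (chr17:44898001-44901000). In the computed digest no CpG of the WNT3 tile at 50.0 could be read. APC2 had a second run in its exons besides the long one, at 83.0, 50.0 and 37.6 points (chr19:1455001-1458000). Of the genes that the study singled out for these differences, 5 were in runs, which is not independent of the data. They were WNT3, APC2, EVX2, IFFO1 and CLDN5, the gene of the tight junction protein claudin-5, which stood at -74.7, -91.9 and -32 (chr22:19510001-19513000). HOOK1, JMJD8, CEND1 and KLF4 had listed tiles but no run, as did RAMP1 and RAMP2, of which the study's text names one or the other.

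TGF-beta and BMP genes were in runs for 4 of 72 (5.56%), and 38 (52.8%) were covered by a listed tile. PMEPA1, an inhibitor of TGF-beta signalling, had 4 exonic tiles at -98.5, -50.3, -94.3 and -100 points (chr20:56223001-56227000). In the computed digest 1, 3, 3 and 1 of their CpGs could be read. The ligand gene BMP4 had -27.1, -52.5 and -51.7 (chr14:54421001-54424000). The other members were not of one direction: GDF10 was positive (30.6 to 76.9 points), and BMP2 changed sign (48.1, -41.8 and -66.7). Of 56 imprinted genes 4 were in runs (7.14%), and 43 (76.8%) were covered by a listed tile. At the imprinted DLK1 and MEG3 locus, where DLK1 is expressed from the paternal and MEG3 from the maternal copy, DLK1 stood at -40, -49.4 and -47.1 points over its TSS (chr14:101192001-101195000) and MEG3 at 64.1, 100, 60.2 and 36.0 (chr14:101299001-101303000). PHLDA2 held both signs (-77.8 to 99.1 points), and ANO1, a calcium-activated chloride channel gene, was covered by a positive run (40 to 100) and by one of both signs (-29.4 to 98.0).

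Collagen genes were covered by runs in 4 of 42 (9.52%), and by a listed tile in 36 (85.7%). COL20A1 (52.7 to 76.5 points) and COL9A3 (43.0 to 74.1) were positive, and COL5A1 and COL1A1 were of both signs. The zinc finger genes of chromosome 19 had 2 of 259 in runs (0.772%), ZNF763 with 3 positive and ZNF536 with 3 negative tiles (-59.2 to -30.8). A listed tile covered 90 of the 259 (34.7%). No run covered any of 53 clustered protocadherins, 57 keratins or 15 DNA methylation enzymes and partners, although 15, 21 and 9 of these genes were covered by a listed tile.

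Runs were frequent towards the ends of chromosomes. Of the 651 runs 318 (48.8%) lay within 5 Mb of an end. So did 49.9% of run tiles, 22.4% of all listed tiles and 17% of the readable tiles of the digest. The share among stretches of 3 or more readable tiles, where most run tiles lay, was not computed. Among positive runs the share was 59%, among negative runs 27.5%. Per Mb, runs were densest on chromosomes 19 (48 runs, 0.812 per Mb), 22 (33 runs, 0.643) and 20 (40 runs, 0.635). They were sparsest on chromosomes 3 (9 runs, 0.0454) and 13 (6 runs, 0.0521). This follows in part how many tiles each chromosome had listed. By the share of listed tiles that lay in runs, chromosomes 16 (7.23%), 20 (7.18%) and 22 (6.86%) were highest. Chromosomes 3 (1.22%) and 15 (1.53%) were lowest, and chromosome 19 had 5.89%, beside 4.36% over all autosomes. Chromosome 14 had 25 positive runs of 31, and the highest numbers of negative runs were on chromosomes 17 (16 of its 47 runs) and 2 (14 of 37).

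The knockout comparison (LY75-R-S with LY75-KO-S) used neither of the libraries that chose the runs, although LY75-R-S was made from cells that carried the LY75 shRNA. It listed 283 of the 2134 run tiles (13.3%), beside 16.0% of all tiles listed in the knockdown comparison. Of these 283 tiles 140 (49.5%, 95% Wilson interval 43.7 to 55.3) had the same direction in both, against 52.5% over all tiles listed in both comparisons. If the order of subtraction in the second table were the opposite, the share would be 50.5%. The order used here is the one under which the mix of all 4 libraries was a positive combination of both comparisons, with least-squares coefficients of 0.552 and 0.433 over 129 run tiles listed in all 3 tables, so that a positive difference stands for higher methylation in LY75-KO-S. The direction of a run tile in the knockdown comparison was matched about as often as not in the knockout comparison. Counts over tiles are not counts over replicates, and no p was computed.

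Negative runs were listed there least often. Of their 453 tiles 27 (5.96%) were listed in the knockout comparison, 13 in the same and 14 in the other direction. Positive runs had 157 of 1129 (13.9%), 79 in the same direction, and runs of both signs 99 of 552 (17.9%), 48 in the same direction. Among tiles outside runs, negative ones were listed in 17.3% and positive ones in 15.5%. Of the runs at the 3 developmental lists 10 of 147 tiles (6.80%) were listed. The 5 HOXD3 tiles, the 4 HOXD11 tiles and all run tiles at IFFO1, ESRP1, ESRP2, SGPP2 and FOXD3 were not listed there. Absence was the usual case, as 16.0% of all tiles of the knockdown comparison were listed. In the stretch from EVX2 to HOXD3, 1 tile of the EVX2 run was listed, at -50.0 points. So was 1 tile of the HOXD10 run, and both were negative in both comparisons.

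**Figure D5:**
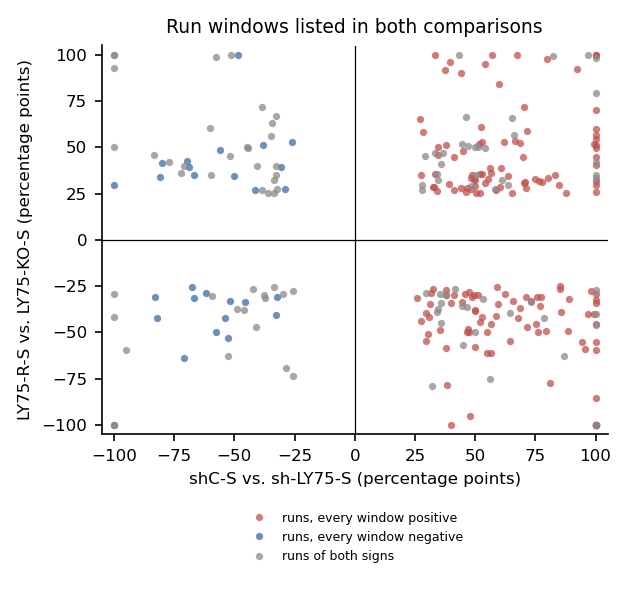
Difference in the knockout comparison (vertical axis) against that in the knockdown comparison (shC-S with sh-LY75-S, horizontal axis), both in percentage points, for the 283 run tiles listed in both, coloured by the kind of run. No tile lies within 25 points of 0 because such tiles were not listed. The tiles fill all 4 quadrants, with 140 of 283 in the quadrants of equal sign.

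Seen run by run, 415 of the 651 runs had no tile listed in the knockout comparison, 191 had 1, 43 had 2 and 2 had 3. With 16.0% of all tiles of the knockdown comparison listed there, short runs would often have none. One run, at chr1:29721001-29724000, 158 kb from the nearest protein-coding TSS (PTPRU), was the only one of the same sign in 3 tiles: it stood at 80.4, 48.2 and 100 points in the knockdown comparison and at 33.2, 33.3 and 25.8 in the knockout comparison. In the other, at chr15:81706001-81709000, 47.5, 46.7 and 100 points faced -50.0, 28.1 and 32.02. No run was opposite in 3 tiles. Of the 45 runs with 2 or more such tiles, 22 (48.9%) had one sign among them in the knockout comparison.

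By the same rule the knockout comparison formed few runs of its own: 42 runs of at most 4 tiles, with 129 of its 26775 listed tiles (0.482%, beside 4.36% in the knockdown comparison). Of these 12 were of one sign. Runs of both comparisons shared 8 tiles, which was 0.375% of the run tiles of the knockdown and 6.20% of those of the knockout comparison, in 3 of its runs. The knockout table thus formed fewer and shorter runs, most of them of both signs. Whether the tables differ in coverage is not known.

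The mix, which set shC-S and LY75-R-S against sh-LY75-S and LY75-KO-S, shared both knockdown libraries with the rule, so its values are given only side by side. It listed 826 run tiles (38.7%), beside 33.4% of all tiles listed in the knockdown comparison, and 46 runs in all their tiles. Of the tiles of negative runs 48.8% were listed, of positive runs 37.6%. The median absolute difference of run tiles there was 38.3 points. The 3 IFFO1 tiles, at -100, -93.5 and -90.3 in the knockdown comparison, stood at -43.9, -45.5 and -42.5 in the mix. Those of ZNF763 stood at 34.6, 30.3 and 55.7, those of PRRT1B at 89.6, 34.4 and 62.7, and those of LHB at -26.6, -74.7 and -60.6. In single tiles the mix went the other way: in APC2 the fifth tile of the long run stood at 29.5 points in the knockdown comparison, -54.9 in the knockout comparison and -39.6 in the mix. In the computed digest no CpG of this APC2 tile could be read.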

How the data were processed

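RRBS libraries of 4 SKOV3 clones, 1 per clone, were compared by the authors in 3 deposited tables. Per the submitters' processing notes, reads were trimmed with Trim Galore 0.4.1, aligned to hg19 with Bismark 0.16.1 and compared with methylKit in tiles of 1000 bp. The extraction protocol names Trimmomatic instead. The authors' deposited tables hold, for tiles past 25 points and a q-value below 0.01, the difference in percent methylation and its p-value and q-value. All columns are the authors' own comparisons, and no per-library values, read counts or minimum coverage were at hand, so the depth behind each value is unknown.

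Tiles of the 22 autosomes were joined into runs when 3 or more starts lay 1000 bp apart. The run finder was tested on simulated data. Genes were taken from GENCODE release 44 (GRCh37 coordinates, basic transcripts, symbols with a RefSeq transcript), CpG numbers and MspI fragments from GRCh37. The order of subtraction was settled as given beside the results. Named runs were the 10 longest, the 5 per direction with a protein-coding TSS and the largest smallest difference, the 5 of widest swing, up to 5 per direction with 3 or more tiles listed in the knockout comparison, those at genes the study names, and 2 to 4 per gene list where as many were covered. Some named genes and sequences that these rules chose are not reported here. The members and lists were chosen with earlier results of these data known. Runs singled out for their tiles in the mix, and values of groups of runs, were chosen after their values were seen. Wilson intervals were computed with SciPy 1.17.1 in Python 3.11.15.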

Additional observations from a re-analysis of the deposited data

Results flagged for a closer look

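In 6 runs both tiles that were listed in the 2 single comparisons stood on one side of 0 in the knockdown comparison and on the other in the knockout comparison, which is why they are listed here. The difference between the comparisons was not tested, as each clone was 1 library. At KCNT1 (chr9:138674001-138681000) the medians were 85.6 and -65.4 points. At ADGRD1, an adhesion receptor gene (chr12:131626001-131629000), they were 58.7 and -65.3. The long noncoding RNA gene LINC02691 (chr14:104734001-104738000) had 52.6 and -59.4. FOXC1, a forkhead factor of the eye and heart (chr6:1607001-1610000), was the only one in the other order, at -64.6 and 67. The remaining 2 had no gene, at 71.5 and -30.5 (chr1:5550001-5554000) and at 70.1 and -47.2 (chr5:44483001-44486000). In 9 of the 45 runs with 2 or more shared tiles every shared tile was opposite (the 6 above and 3 whose shared tiles differed in sign among themselves), and in 13 every one was of the same direction, so these runs stand beside at least as many of the other kind.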

How the results depend on the processing

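Of 38 values under other settings 19 stayed within the 95% Wilson interval of the share reported, or within 1.5 times the count reported. The count of 651 runs became 4322 with a minimum of 2 tiles, 133 with 4, 171 when only tiles of 50 points or more were joined, and 1241 when 1 unlisted tile was allowed inside a run. The 445 covered genes became 2138, 92, 133 and 810 under the same settings. The share of runs with one sign (74.3%) was 80.3% and 70.7% with 2 and 4 tiles, 84.8% at 50 points, 78.2% at a q-value of 1e-10 and 67.5% with 1 unlisted tile allowed. Positive tiles (67.1%) were 60.2%, 64.8% and 69.5% at 50 points, at 1e-10 and with the gap, and 71.1% when runs were broken where the sign changed. The share listed in the knockout comparison (13.3%) was 11.3% at 1e-10 and 11.5% with broken runs. The share of equal direction there ranged from 45.1% to 54.4% over all settings, within its interval. Counts of runs and genes thus rest on the rule's length and limits, by construction. No replicate could be left out and no paired analysis was possible because each clone was 1 library. Depth, and so the precision of each difference, is unknown.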

Other observations

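Many runs had another run nearby. Of the 651 runs 274 (42.1%) had another run within 100 kb, and 20 groups held 4 or more runs each. Whether runs lay closer together than listed or readable tiles do was not tested. Where both neighbours within 100 kb were of one sign (133 pairs), 111 pairs (83.5%) were of the same sign, 96 positive and 15 negative. Most runs of one sign were positive (346, beside 138 negative), so many pairs would agree without being neighbours. Pairs of listed tiles were of equal sign in 82.5% at 1 kb and 65.7% at 100 kb.

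The largest group was on the short arm of chromosome 16 (chr16:1023001-1395000), with 13 runs with 44 tiles in all, 10 of them positive, 1 negative and 2 of both signs. It touched SOX8, a developmental transcription factor gene, SSTR5, a somatostatin receptor gene, BAIAP3 and C1QTNF8. On chromosome 14, 10 runs with 31 tiles in all were positive throughout (chr14:104573001-104860000). One lay in ASPG, 2 in KIF26A, a kinesin family gene, and the other 7 beyond KIF26A, outside protein-coding genes. A group of 7 positive runs with 25 tiles in all lay within 316 kb (chr1:2723001-3039000), 2 of the runs in introns of PRDM16, which encodes a factor of brown fat cells. Next to it 5 positive runs covered PRDM16 and ARHGEF16 (chr1:3271001-3397000). The HOXD group was the only one of the 20 in which every run was negative.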
